A study of Mus musculus and Rattus norvegicus with 26 samples.

Results

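Introns with 1024 or more reads are described here in the lists of cytoplasmic intron-sequence retaining transcripts (CIRTs) of rodent neurons, brown fat cells and heart muscle cells. An intron is counted as 1 intron number of 1 RefSeq transcript, and it was selected on its read count: at least 1024 reads in 1 of the 6 lists. These introns are called deeply read introns below. They are 6610 of the 85860 introns over the 6 lists (7.70%), and since some recur they are 5985 different introns of 57490. By list they are 586 of 19477 introns in mouse dendrites, 353 of 10568 in mouse somas, 2745 of 30018 in brown adipose tissue (BAT) cells, 2300 of 13056 in cardiomyocytes, 159 of 7426 in rat dendrites and 467 of 5315 in rat somas.

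The study sequenced RNA that had been amplified in 3 rounds by the aRNA method from dendrites cut by hand, from neuronal somas and from single BAT cells and cardiomyocytes, 26 samples in all by the labels. Mouse dendrites (3 samples) and mouse somas (3 samples) were hippocampal, from C57BL/6 mice at embryonic day 18. Rat dendrites (2 samples) and rat somas (3 samples) were hippocampal, from Sprague-Dawley rats at the same embryonic day 18. Per the study's methods, the neurons of both species were first grown in primary culture, and dendrites and somas were taken from these cultures. BAT cells (6 samples) were grown from interscapular brown fat of CD-1 mice at embryonic day 17.5, and cardiomyocytes (9 samples) came from ventricles of transgenic C57BL/6 mice at embryonic day 14.5, which per the study's methods carried a hemizygous Fucci cell cycle reporter and were sorted by flow cytometry. No group was treated. For the BAT and cardiomyocyte groups the labels name more samples than the study does, so which of them entered these 2 lists is not known. Each list pools libraries of its group, so every value below is 1 pooled value without replicates, and a dendrite sample is itself a pool of many cut dendrites.

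Introns are normally removed from a transcript in the nucleus, but part of an intron can stay in an RNA that leaves it, and such RNAs have been described in dendrites, where local translation takes place. In aRNA amplification a primer of thymines with a T7 promoter pairs with a stretch of adenines, usually the poly(A) tail, and can also pair with a stretch of adenines inside an RNA. Whole somas, BAT cells and cardiomyocytes contain the nucleus and its unspliced RNA, which dissected dendrites should not.

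The introns that the results turn on differ in how much of them was read, and their sequences are shown first. All are on the mouse build mm9 and are written from 5′ to 3′ on the strand of the gene. Intron 3 of Slc25a4, the mitochondrial carrier that exchanges ADP for ATP, is shown because it was deeply read in all 4 mouse lists over its whole length. It has 777 nt, and its first 120 bases lie at chr8:47293632-47293751 and its last 120 bases at chr8:47292975-47293094, both on the minus strand, with the splice site bases GT and AG in capitals.
Slc25a4 intron 3, first bases: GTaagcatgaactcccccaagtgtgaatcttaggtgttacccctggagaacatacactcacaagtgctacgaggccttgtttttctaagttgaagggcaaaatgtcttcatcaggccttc
Slc25a4 intron 3, last bases: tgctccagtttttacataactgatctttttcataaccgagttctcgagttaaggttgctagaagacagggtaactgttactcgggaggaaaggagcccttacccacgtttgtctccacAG

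Very short introns are among the most densely read. Intron 12 of Nexn, which encodes the actin-binding protein nexilin of the Z disc, has 85 nt (chr3:151900544-151900628, minus strand), and intron 12 of Xrn2, which encodes a nuclear exonuclease, has 84 nt (chr2:146855521-146855604, plus strand). Both were deeply read in cardiomyocytes and are shown whole, with the splice site bases in capitals. The Xrn2 intron touches an annotated transcript of the class retained intron, and both introns were chosen after their values were seen.
Nexn intron 12: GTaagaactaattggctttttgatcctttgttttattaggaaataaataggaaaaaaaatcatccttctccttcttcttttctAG
Xrn2 intron 12: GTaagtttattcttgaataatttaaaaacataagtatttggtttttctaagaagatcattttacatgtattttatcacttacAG

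The next 3 introns are shown for a tract of adenines inside the stretch that was read, which is in capitals. Intron 3 of Alkbh8 was among the deepest of mouse dendrites (chr9:3343512-3343695, plus strand), intron 10 of Gad1 was the deepest of mouse somas (chr2:70427003-70427186, plus strand), and intron 16 of Kif1b was the second deepest of BAT cells (chr4:148621503-148621675, minus strand). The tracts have 24, 24 and 13 adenines. Up to 100 bases before and 60 bases after each tract are printed.
Alkbh8 intron 3: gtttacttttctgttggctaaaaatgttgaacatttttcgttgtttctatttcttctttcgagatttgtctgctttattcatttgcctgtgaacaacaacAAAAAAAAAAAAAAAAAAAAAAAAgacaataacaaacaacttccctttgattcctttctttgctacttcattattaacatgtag
Gad1 intron 10: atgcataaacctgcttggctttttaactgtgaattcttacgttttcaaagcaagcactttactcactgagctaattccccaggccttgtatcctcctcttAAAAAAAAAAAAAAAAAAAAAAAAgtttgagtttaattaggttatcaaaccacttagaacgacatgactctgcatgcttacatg
Kif1b intron 16: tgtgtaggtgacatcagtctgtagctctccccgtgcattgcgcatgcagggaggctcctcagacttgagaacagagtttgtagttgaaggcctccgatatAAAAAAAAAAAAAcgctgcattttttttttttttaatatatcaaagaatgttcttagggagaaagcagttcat

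The last sequence shows a deeply read stretch that lies in another annotated feature. The read stretch of intron 3 of Zfp938, a zinc finger gene, has 94 nt in mouse dendrites and BAT cells (chr10:81690181-81690274, minus strand), and the 85 capitals lie in an exon of an annotated transcript of the nonsense-mediated decay class.
Zfp938 intron 3: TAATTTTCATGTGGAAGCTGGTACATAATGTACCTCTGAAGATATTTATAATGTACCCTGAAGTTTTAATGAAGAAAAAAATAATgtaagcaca

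The lists hold between 1007530 reads (rat dendrites) and 17858440 reads (BAT cells), so a minimum of 1024 reads is not the same hurdle in each. Per 1000000 listed reads it corresponds to 332 reads in mouse dendrites, 552 in mouse somas, 57.3 in BAT cells, 83.9 in cardiomyocytes, 1016 in rat dendrites and 489 in rat somas. The number of deeply read introns can therefore not be compared between cell types, since cell type, list depth and number of pooled libraries cannot be told apart. Among marker genes of the labelled cell types, 8 of 11 brown adipocyte markers had a deeply read intron in BAT cells (Cidea, Dio2, Ebf2, Fabp4, Lpl, Plin1, Pparg and Ucp1) and 9 of 12 cardiomyocyte markers had 1 in cardiomyocytes, where 20.7% and 26.2% of all listed genes did. Of 12 neuron markers, 1 had a deeply read intron in mouse dendrites, 2 (Snap25 among them) in mouse somas, 0 in rat dendrites and 2 (Gria2 among them) in rat somas, and the 1 of 12 in mouse dendrites is near the 6.34% of all listed genes of that list. Single markers of other cell types were deeply read too. The astrocyte marker Aldh1l1 had 2826 reads in intron 16 in mouse dendrites, the erythroid marker Alas2 had 4431 reads in intron 8 in mouse somas, and 4 cardiomyocyte markers (Actn2, Nebl, Ryr2 and Ttn) were deeply read in BAT cells. The 7 oligodendrocyte markers had no deeply read intron in any list. The part of such cells in the results was not tested.

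Few introns held much of the reads. Deeply read introns were 3.01% of the introns of mouse dendrites (95% Wilson interval 2.78 to 3.26, counting error only, as for all intervals below) and held 45.4% of the list's reads. They were 3.34% in mouse somas with 52.3% of the reads, 9.14% in BAT cells with 83.3%, and 17.6% in cardiomyocytes with 88.2%. In rat dendrites 2.14% of the introns held 46.2% of the reads, and in rat somas 8.79% held 72.7%. These shares follow from the rule and are a description. The 10 deepest introns alone held between 4.73% of the reads (BAT cells) and 16.8% (rat dendrites). The median deeply read intron had 1614 reads in mouse dendrites, 1778 in mouse somas, 2379 in BAT cells, 2603 in cardiomyocytes, 1726 in rat dendrites and 1897 in rat somas, against medians of 14.0 to 53.0 reads over all introns of a list.

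**Figure D1:**
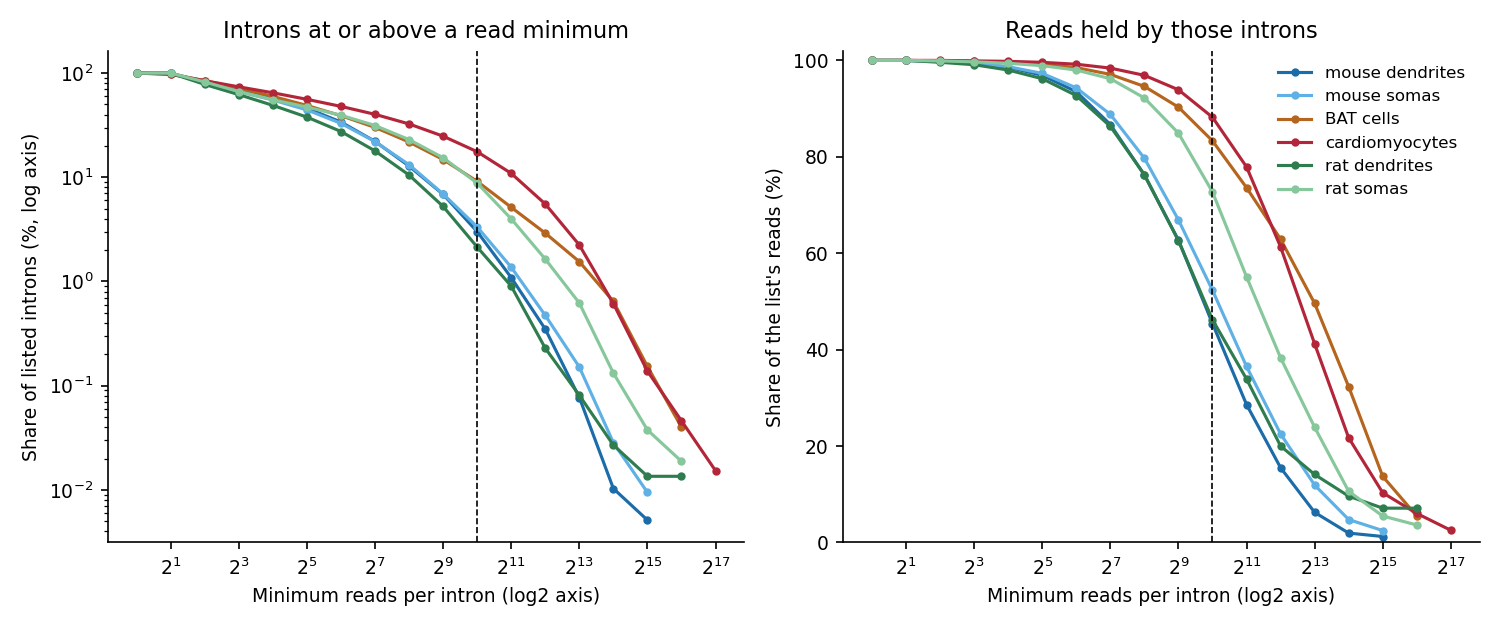
Left, the share of a list's introns that reach a minimum number of reads (log axes), and right, the share of the list's reads that those introns hold, for the 6 lists, with the minimum of 1024 reads as a dashed line. The left curves fall without a step at the minimum, where between 2.14% and 17.6% of the introns remain and hold between 45.4% and 88.2% of the reads.

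No gap in the counts separates the deeply read introns from the rest. In mouse dendrites the 3 introns just inside the minimum had 1025 to 1027 reads, in Tcf12, Nab1 and Arap2, and the 3 just outside had 1010 to 1014, in Lrp1b, Wnk2 and Phtf2. In BAT cells the values were 1024 to 1027 inside and 1023 for all 3 outside, and in cardiomyocytes 1024 to 1025 inside and 1021 to 1023 outside. In mouse somas they were 1026 to 1028 and 1007 to 1016, in rat dendrites 1031 to 1034 and 1017 to 1022, and in rat somas 1033 to 1038 and 1010 to 1022. Intron 3 of Tcf12, a basic helix-loop-helix transcription factor, fell short in mouse somas with 1016 reads and was deeply read in the other 3 mouse lists.

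At the level of genes, 546 of 8607 listed genes of mouse dendrites had a deeply read intron (6.34%), 306 of 5895 of mouse somas (5.19%), 2118 of 10220 of BAT cells (20.7%) and 1626 of 6205 of cardiomyocytes (26.2%). In rat they were 156 of 4485 genes of dendrites (3.48%) and 412 of 3393 of somas (12.1%). Most of these genes had 1 such intron, namely 513 of the 546 in mouse dendrites, 1653 of the 2118 in BAT cells and 1213 of the 1626 in cardiomyocytes. Genes with 3 or more numbered 5 in mouse dendrites, 9 in mouse somas, 110 in BAT cells, 129 in cardiomyocytes, 0 in rat dendrites and 8 in rat somas.

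In mouse dendrites the deepest intron was intron 3 of Zbtb49, a zinc finger transcription factor, which had 106 reads in mouse somas and was not listed in BAT cells or cardiomyocytes. All 970 nt of its read stretch lie in an annotated exon of a Zbtb49 transcript on the same strand, so exon and intron cannot be told apart there. Intron 8 of Haus6, a subunit of the augmin complex that nucleates spindle microtubules, had 22090 reads in dendrites, 2 in somas and 324 in BAT cells. Intron 3 of Alkbh8, a tRNA-modifying enzyme, had 15615 reads in dendrites and 2 in somas. Intron 7 of Papss2, which makes the sulfate donor of sulfation, had 12142 reads and intron 15 of 4930525F21Rik had 11058 reads, and in the other lists these introns had at most the 32 reads of 4930525F21Rik in somas. The 5 deepest introns of dendrites were thus low or not listed in the 3 other mouse lists.

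In mouse somas intron 10 of Gad1, which encodes the enzyme that makes GABA, held 45674 reads, 2.46% of all reads of the list, in a single stretch of 1290 nt, and was not listed elsewhere. Intron 5 of Gria4, an AMPA-type glutamate receptor subunit, had 24913 reads in somas, 750 in dendrites, 382 in BAT cells and 2 in cardiomyocytes. Intron 13 of Plxdc2, a transmembrane protein with a plexin domain, had 17484 reads in somas and 10670 in cardiomyocytes, but 4 in BAT cells and none listed in dendrites. Intron 2 of Dlc1, a GTPase-activating protein, had 14140 reads in somas and 57 to 113 in the other lists. Intron 2 of Rims1, a scaffold of the presynaptic active zone, had 14024 reads spread over 18 stretches, with 230 in dendrites and 116 in BAT cells. Of these 5, only the intron of Plxdc2 was deeply read in another list.

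The deepest introns of BAT cells belonged to genes of several kinds. Intron 13 of Ptprr, a receptor-type tyrosine phosphatase, had 98533 reads against 42 in mouse dendrites. Intron 16 of Kif1b, a kinesin motor, had 95060 reads in 453 nt and intron 2 of Ctnna3, a catenin of cell junctions, had 90978 reads, and neither was listed in another mouse list. Intron 1 of Tmem170b had 95000 reads in BAT cells, 548 in somas and 235 in dendrites. Intron 6 of Golga5, a golgin of the Golgi apparatus, had 88586 reads in BAT cells, 400 in dendrites and 66 in somas. None of the 5 was listed in cardiomyocytes.

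In cardiomyocytes intron 1 of Dmd, which encodes dystrophin, had 163979 reads in cardiomyocytes, 12396 in BAT cells, 1673 in dendrites and 565 in somas. Intron 8 of Trdn, which encodes triadin of the calcium release complex, had 144061 reads in cardiomyocytes and 80 to 458 in the other lists. Intron 2 of Cacnb2, the beta subunit of a voltage-gated calcium channel, had 108413 reads in cardiomyocytes and 1279 to 3529 in the other lists. Intron 4 of Nexn had 108275 reads and was listed in cardiomyocytes alone. Intron 3 of Pitpna, also among the 5 deepest, had 129219 reads and was deeply read in all 4 mouse lists.

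In rat dendrites intron 17 of RGD1311678, a gene without an assigned name, held 7.11% of all reads of the list, with 71641 reads in dendrites and 75845 in rat somas. Intron 18 of Arhgef7, an exchange factor for Rac and Cdc42, had 14574 reads in dendrites and 14195 in somas. Since the soma list is the deeper one, these are 14465 and 6777 reads per 1000000 listed reads for Arhgef7, and 71106 and 36211 for RGD1311678, so both introns were higher in dendrites relative to list depth. Intron 4 of Sipa1l3 (25042 reads), intron 7 of Tpm1, a tropomyosin (12950 reads), and intron 8 of Meis2, a homeobox transcription factor (9206 reads), were not listed in rat somas. In rat somas intron 6 of Nubp1, an iron-sulfur cluster assembly factor, had 38986 reads against 472 in dendrites, and intron 9 of Smarcd3, a subunit of the SWI/SNF chromatin complex, had 30864 against 4438. Intron 3 of the adaptor Gab2 (19787 reads) and intron 5 of the kinase Fyn (19190 reads) were not listed in rat dendrites. The deepest introns of each rat list thus included both shared and unshared ones.

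Deeply read introns were listed again in another list of the species more often than the introns of the same list as a whole. In mouse dendrites 472 of 586 (80.5%, interval 77.1 to 83.5) were listed in at least 1 of the other mouse lists, against 61.9% of all introns of the list. The shares were 87.5% against 75.4% in mouse somas, 70.5% against 51.1% in BAT cells and 78.1% against 72.9% in cardiomyocytes. In rat, 68 of 159 deeply read dendrite introns (42.8%, interval 35.3 to 50.5) were listed in somas, against 24.9% of all, and 196 of 467 soma introns (42.0%, interval 37.6 to 46.5) in dendrites, against 34.8%. The share rose with the read count over the whole range in mouse dendrites, from 55.0% of the introns with 1 to 15 reads to 76.7% of those with 256 to 1023 reads, so the minimum is not a boundary in this respect either. Deeply read introns lie in longer introns (below), and the part of intron length in being listed again was not tested.

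**Figure D2:**
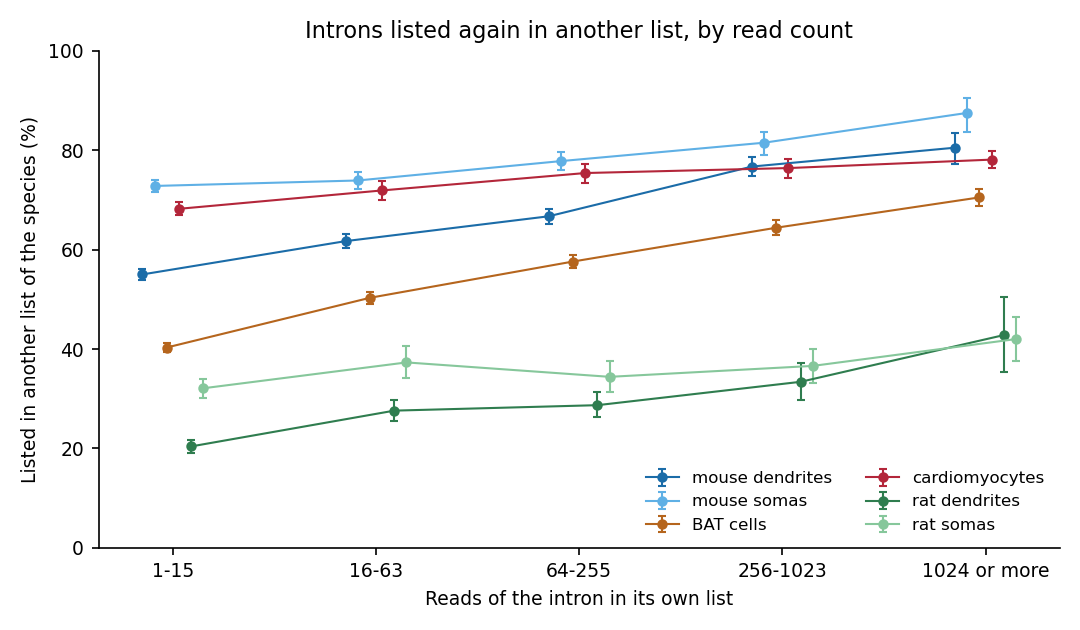
Share of introns that are listed in another list of the same species (vertical axis, %) by their number of reads in their own list (horizontal axis), for the 6 lists, with 95% Wilson intervals for counting error. From the lowest to the highest read class the share rises from 55.0% to 80.5% in mouse dendrites and from 40.3% to 70.5% in BAT cells, and from 32.1% to 42.0% in rat somas.

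The lists differed in which other list repeated their introns. Of the deeply read introns of mouse dendrites, 57.0% were listed in mouse somas (all introns 25.9%), 60.6% in BAT cells (all 48.6%) and 33.8% in cardiomyocytes (all 24.0%). Where they were listed in somas, however, they had a median of 12 reads there, against 167 reads in BAT cells and 157 in cardiomyocytes. The other introns of the dendrite list had medians of 27, 60 and 101 reads in these lists, so that in somas the deeply read dendrite introns were below the others and in BAT cells and cardiomyocytes above them. Of the deeply read introns of mouse somas, 62.0% were listed in dendrites (all 47.8%), 70.3% in BAT cells (all 55.5%) and 45.3% in cardiomyocytes (all 32.9%), with medians there of 105, 155 and 466 reads. Most dendrite introns found in somas were thus found there with few reads. The lists differ in depth, and the part of depth in these medians was not tested.

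For BAT cells 51.2% of the deeply read introns were listed in dendrites (all 31.6%), 33.8% in somas (all 19.5%) and 40.5% in cardiomyocytes (all 26.1%). For cardiomyocytes the shares were 47.0% in dendrites (all 35.9%), 38.0% in somas (all 26.6%) and 63.2% in BAT cells (all 60.0%). In the last of these, the deeply read introns exceeded all introns by little. The BAT list is the longest, and it repeated the highest share of each other mouse list.

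Being deeply read in a second list was less common than being listed there. In mouse dendrites 123 deeply read introns (21.0%) also had 1024 or more reads in another mouse list, against 12.1% of all introns of the list. The shares were 30.3% against 17.2% in mouse somas, 16.9% against 6.44% in BAT cells and 19.1% against 10.4% in cardiomyocytes. In rat they were 16.4% of the deeply read dendrite introns against 2.64% of all, and 5.57% of the deeply read soma introns against 1.28%. Mouse dendrites and mouse somas shared 22 deeply read introns, which are 3.75% of those of dendrites and 6.23% of those of somas. BAT cells and cardiomyocytes, with more such introns, shared 376, which are 13.7% and 16.3% of theirs.

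Where a deeply read intron was listed again, the stretches that were read often overlapped. Overlap of at least 1 nt with another mouse list was found for 80.3% of such introns of mouse dendrites (interval 76.5 to 83.6, all introns 55.5%), 83.2% of those of mouse somas (all 68.9%), 73.9% of those of BAT cells (all 59.8%) and 76.0% of those of cardiomyocytes (all 69.1%). In rat it was found for 85.3% of the deeply read dendrite introns (58 of 68, interval 75 to 91.8) and for 66.8% of the soma introns (131 of 196), against 66.5% of all introns that both rat lists hold. The rat soma introns were therefore at the level of all introns. Among mouse introns with a single stretch the shares were 79.5% of the deeply read against 51.9% of the other introns of mouse dendrites and 74.4% against 56.6% of those of BAT cells. The deeply read single stretches were longer, with medians of 577 nt against 251 nt in mouse dendrites and 816 nt against 250 nt in BAT cells, and the part of stretch length in the overlap was not tested.

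Of the 5385 different deeply read introns of mouse, 4849 (90.0%) were deeply read in 1 list, 480 in 2 lists, 49 in 3 lists and 7 in all 4. Many were present below the minimum, since 822 of them were listed in all 4 mouse lists and 1471 in 1 list alone. In raw reads the 56 introns that were deeply read in 3 or 4 lists were highest in cardiomyocytes in 28 cases, in BAT cells in 21, in dendrites in 5 and in somas in 2. Relative to the reads of each list, a scaling chosen after seeing the data, the order was different, with 17 highest in cardiomyocytes, 4 in BAT cells, 12 in dendrites and 23 in somas. Reads below are raw unless a scale is named. Of the 49 that missed the minimum in 1 list, 23 missed it in somas, 18 in dendrites, 5 in BAT cells and 3 in cardiomyocytes, and 18, 14, 4 and 3 of them were listed there with fewer reads.

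**Figure D3:**
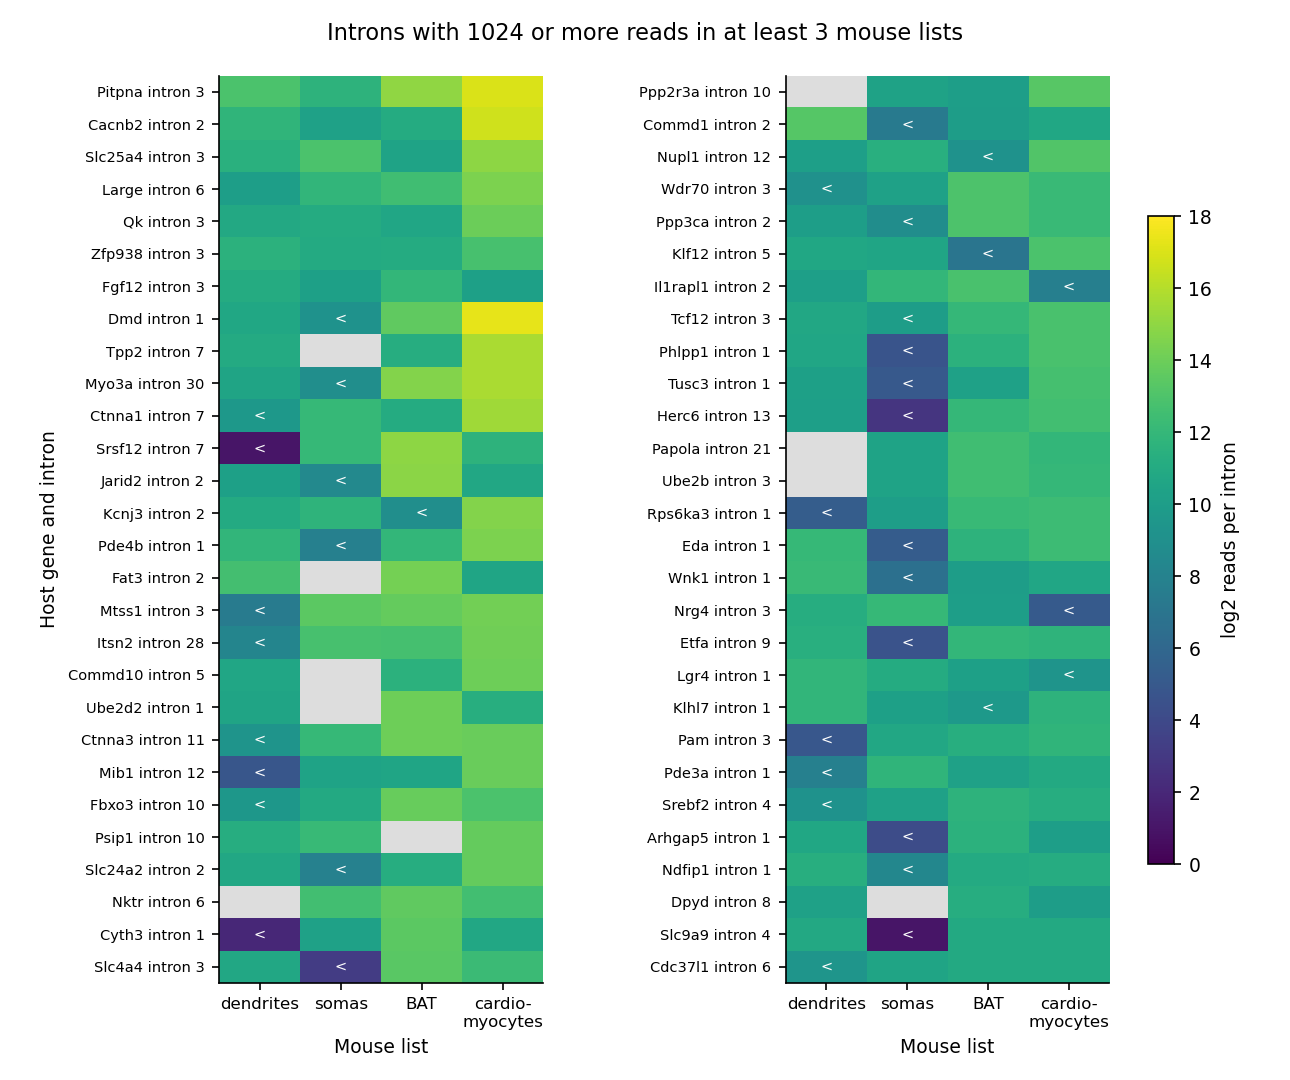
Reads of the 56 introns with 1024 or more reads in at least 3 of the 4 mouse lists (rows, by host gene) in each mouse list (columns), coloured by log2 reads per intron. White marks show counts below 1024 and grey cells introns that are not listed, and the first 7 rows of the left panel are the introns above the minimum in all 4 lists, led by Pitpna with 3217 to 129219 reads.

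Of the 7 introns deeply read in all 4 mouse lists, those of Slc25a4, Pitpna and Zfp938 were read in a single stretch in each list and the other 4 in several stretches. Intron 3 of Slc25a4, shown above, had 2693 reads in dendrites, 7737 in somas, 1361 in BAT cells and 31609 in cardiomyocytes, and in each list a single stretch of 776 nt covered 99.9% of the intron. Of this stretch 427 nt (55.0%) lie in an annotated transcript of the class retained intron. Per 100 nt of stretch that is 347, 997, 175 and 4073 reads. Both measures were highest in cardiomyocytes and lowest in BAT cells, but relative to list depth somas were highest, with 4170 reads per 1000000 listed reads against 2591 in cardiomyocytes, 872 in dendrites and 76.2 in BAT cells.

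Intron 3 of Pitpna, which encodes a phosphatidylinositol transfer protein, had 7586 reads in dendrites, 3217 in somas, 33358 in BAT cells and 129219 in cardiomyocytes, in 1 stretch of 1238 to 1608 nt in each list. The stretch common to the 4 lists has 1186 nt of an intron of 5060 nt, of which 24.5% to 31.8% was read by list. The reads include 192 nt of the pseudogene Gm12338, which is annotated on the opposite strand. The pseudogene makes up 11.9% to 15.5% of the read nucleotides. Intron 3 of Zfp938 had 3026, 2064, 2149 and 6830 reads in the same order of lists. Its stretch begins at the same base on the gene strand in all 4 lists and has 94 nt in dendrites and BAT cells, 268 nt in somas and 461 nt in cardiomyocytes. The 85 nt in the annotated exon are 90.4% of the shortest of these stretches and 18.4% of the longest.

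The other 4 introns are between 34910 and 260413 nt long. Intron 2 of Cacnb2 had 3529 reads in dendrites, 1279 in somas, 2135 in BAT cells and 108413 in cardiomyocytes, in 12 to 38 stretches. Some of these stretches touch annotated processed pseudogenes in each list. Intron 6 of Large, a glycosyltransferase that acts on dystroglycan, had 1096, 3749, 5669 and 22807 reads in the same order. Intron 3 of Qk, the RNA-binding protein quaking, had 1899, 2107, 1574 and 16273 reads. Intron 3 of Fgf12, an intracellular growth factor homologue that binds sodium channels, had 2209, 1198, 3891 and 1227 reads and was the only one of the 7 whose stretches did not overlap between every pair of lists. Dividing by the read length, the intron of Cacnb2 had 381 reads per 100 nt in cardiomyocytes and 25.3 to 61.5 in the other lists, so the difference was present in density as in reads.

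The 49 introns deeply read in 3 mouse lists include genes of cell adhesion, phosphorylation and protein turnover. Among adhesion genes, intron 7 of Ctnna1, alpha-E-catenin, had 44260 reads in cardiomyocytes, 4334 in somas, 2118 in BAT cells and 778 in dendrites, and intron 11 of Ctnna3 had 15056, 4208, 16684 and 652 in the same order of lists. Intron 2 of Fat3, an atypical cadherin, had 18877 reads in BAT cells, 6228 in dendrites and 1497 in cardiomyocytes, and was not listed in somas. The catenin introns missed the minimum in dendrites and the cadherin intron in somas.

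Among kinases, phosphatases and cyclic nucleotide phosphodiesterases were Wnk1, Rps6ka3, Ppp3ca, Phlpp1, Ppp2r3a, Pde3a and Pde4b. Intron 1 of Pde4b, which breaks down cyclic AMP, had 22364 reads in cardiomyocytes, 3785 in BAT cells, 3757 in dendrites and 231 in somas. Intron 1 of Pde3a had 3523 reads in somas, 1917 in cardiomyocytes, 1276 in BAT cells and 234 in dendrites. The somas were thus lowest for 1 phosphodiesterase and highest for the other. Intron 2 of Ppp3ca, the catalytic subunit of calcineurin, had 7886 reads in BAT cells, 4818 in cardiomyocytes, 1090 in dendrites and 445 in somas.

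Among genes of the ubiquitin system were Ube2b, Ube2d2, Mib1, Herc6, Fbxo3, Klhl7 and Ndfip1. Intron 1 of Ube2d2, a ubiquitin-conjugating enzyme, had 16937 reads in BAT cells, 2465 in cardiomyocytes and 1455 in dendrites. Intron 12 of Mib1, a ligase of Notch signalling, had 15150 reads in cardiomyocytes, 1521 in BAT cells, 1369 in somas and 28 in dendrites. Among splicing and chromatin genes, intron 7 of Srsf12 had 31905 reads in BAT cells, 4175 in somas, 3146 in cardiomyocytes and 2 in dendrites, and intron 2 of Jarid2, a partner of the Polycomb complex, had 29290 in BAT cells, 1748 in cardiomyocytes, 1175 in dendrites and 357 in somas. The remaining introns include those of the channel gene Kcnj3 (466 to 25765 reads), the myosin Myo3a (467 to 52869 reads) and the copper metabolism gene Commd1, which was highest in dendrites (9815 reads, against 170 to 1669 in the other lists).

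In rat, 26 introns were deeply read in dendrites and somas both, and the read stretches overlapped in 23 of them. Those named here were chosen after their values were seen. Intron 17 of RGD1311678 was the deepest in both lists. Intron 12 of Frmd3, a protein with a FERM domain, had 5764 reads in dendrites and 8983 in somas. Other introns were far apart, as intron 15 of Nell1, a secreted growth factor-like protein, with 1075 reads in dendrites and 12716 in somas, and intron 9 of Psip1, a chromatin-binding coactivator, with 1307 and 7804. The stretches of the Nell1 intron did not overlap between dendrites and somas, so its counts come from different parts of the intron. Introns higher in dendrites included intron 13 of Cwf19l2, a splicing factor, with 6357 against 1903 reads, and intron 13 of Ppp2r3c, a phosphatase subunit, with 3662 against 1813. H13, which encodes signal peptide peptidase, was the only gene with 2 such introns, intron 3 (1396 and 1078 reads) and intron 8 (2095 and 2829 reads).

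Host genes were compared between the species by symbol. In dendrites, 11 genes had a deeply read intron in mouse and in rat, which is 2.01% of the 546 mouse genes and 7.05% of the 156 rat genes. Within the 2767 genes that both dendrite lists hold, 5.88% of the mouse genes with a deeply read intron had 1 in rat as well, against 3.79% of all 2767, and 10.5% of the rat genes had 1 in mouse, against 6.76%. In somas, 38 genes had 1 in both species, which is 12.4% of the 306 mouse genes and 9.22% of the 412 rat genes. Within the 1777 genes of both soma lists, 26.6% of the mouse genes with a deeply read intron had 1 in rat, against 14.1% of all, and 15.1% of the rat genes had 1 in mouse, against 8.05%. The shares of shared genes were above those of all genes in somas, while in dendrites they rest on 11 genes, and the difference from all genes was not tested. Longer genes have more introns that could be listed, and the part of gene length was not tested.

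The 11 genes in dendrites of both species are Pde1c, Ccdc39, Reln, Slc25a4, Nln, Psip1, Dpyd, Bace1, Dnm3, Nup210l and Stim1. Ordered by the lower of both counts, Pde1c, a calmodulin-dependent phosphodiesterase, came first with 4511 reads in intron 3 in mouse and 3239 reads in intron 17 in rat. Ccdc39, needed for the assembly of motile cilia, had 6456 reads in mouse and 2590 in rat. Reln, the secreted guidance protein reelin, had 2889 reads in intron 8 in mouse and 2072 reads in intron 4 in rat. Bace1, the beta-secretase, had 2267 and 1190, and Stim1, the calcium sensor of the endoplasmic reticulum, 1244 and 1034. Slc25a4 and Nln had the same intron number in both species, the other 9 genes did not, and introns were not matched by sequence.

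Slc25a4 was the only gene symbol with a deeply read intron in all 6 lists, and it was intron 3 in each. In rat this intron had 1847 reads in dendrites and 1218 in somas, in a stretch of 748 nt at the same position in both lists. In cardiomyocytes intron 1 of Slc25a4 was deeply read as well (1211 reads). In somas of both species the shared genes, named after their values were seen, include Syt1, the calcium sensor of vesicle release (7666 reads in mouse, 3296 in rat), Nrxn3, a presynaptic adhesion protein (3181 and 8021), Gria4 (24913 and 2223), Cacna1b, a presynaptic calcium channel (6539 and 1696), and Ube3a, the ubiquitin ligase lost in Angelman syndrome (2602 and 8681).

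Deeply read introns were densely read and read over longer stretches, as their choice by read count favours. For cells that contain the nucleus the study kept only stretches of at most 400 nt in its own counts, and the lists hold longer ones as well. Only stretches longer than this were found for 55% of the deeply read introns of mouse somas, 55% of those of BAT cells, 65% of those of cardiomyocytes and 70.2% of those of rat somas, which that limit would drop. The median density was 217 reads per 100 nt in mouse dendrites against 6.65 over all introns, and between 183 (mouse somas) and 310 (cardiomyocytes) in the other lists against 5.05 to 17.6. Their read stretches had medians of 869 nt in mouse dendrites, 1016 in mouse somas, 1150 in BAT cells, 919 in cardiomyocytes, 791 in rat dendrites and 883 in rat somas, against 302 to 351 nt over all introns. They were split into several stretches more often, since a single stretch was found for 52.7%, 54.4%, 53.0%, 67.2%, 67.3% and 71.7% of them in the same order, against 77.8% to 90.2% of all introns. First introns made up 11.8% in mouse dendrites (all 9.0%), 9.92% in mouse somas (all 8.89%), 12.1% in BAT cells (all 8.30%), 9.22% in cardiomyocytes (all 7.88%), 13.8% in rat dendrites (all 10.8%) and 13.3% in rat somas (all 9.52%).

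The introns themselves were longer than the others, as matched to the mouse annotation for 97.2% to 98.8% of the deeply read introns. The median intron had 7277 nt in mouse dendrites against 3845 nt for the other introns of the list, 6747 against 3702 in mouse somas, 5332 against 2577 in BAT cells and 4226 against 2467 in cardiomyocytes. Despite this the read stretches covered more of them, with medians of 11.2% against 8.42% in mouse dendrites, 13.6% against 9.16% in mouse somas, 20.4% against 12.8% in BAT cells and 21.6% against 10.9% in cardiomyocytes. Introns covered over more than 80% numbered 9 in mouse dendrites (1.55%, other introns 1.64%), 11 in mouse somas (3.21%, other introns 3.62%), 250 in BAT cells (9.26%, other introns 13.5%) and 196 in cardiomyocytes (8.67%, other introns 13.4%). Near complete cover was therefore rarer among deeply read introns than among the others in BAT cells and cardiomyocytes, where the covered ones had median lengths of 972 nt and 896 nt.

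Some covered introns are named here, chosen after their values were seen. In cardiomyocytes a single stretch covered intron 8 of Trdn (4037 nt) and intron 4 of Nexn (3106 nt) but for 1 base of each. In BAT cells it covered 99.9% of intron 3 of Fabp4, the fatty acid carrier of adipocytes (670 nt, 70980 reads), and of intron 2 of the splicing factor Isy1 (733 nt, 44156 reads). In mouse dendrites it covered 99.9% of intron 3 of the splicing factor Smndc1 (735 nt, 2725 reads) and 92.8% of intron 5 of the oxidase Nox1 (125 nt, 3671 reads). In the lists a stretch stops 1 base before the highest coordinate of such an intron, which is its last base on the plus strand and its first base on the minus strand, so 1 missing base is how full cover appears. By density the short introns shown above stood out, with 11908 reads per 100 nt in intron 12 of Nexn and 11314 in intron 12 of Xrn2, next to 20985 in intron 16 of Kif1b and 10610 in intron 3 of Fabp4.

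Stretches of deeply read and of other introns alike seldom began at the 5′ splice site in mouse dendrites and did so more often in the other mouse lists. Among deeply read introns with a single stretch, 6.91% began within 1 nt of the intron's 5′ end in mouse dendrites, 16.5% in mouse somas, 24.8% in BAT cells and 25.5% in cardiomyocytes, against 5.80%, 8.47%, 24.0% and 21.1% of the other introns. Within 1 nt of the 3′ end ended 7.24%, 5.85%, 24.1% and 14.5%, against 7.30%, 10.6%, 28.3% and 29.5% of the others. Neither end was reached by 86.5% in mouse dendrites, 79.3% in mouse somas, 63.3% in BAT cells and 67.5% in cardiomyocytes, against 87.9%, 83.5%, 62.2% and 62.0% of the other introns. Most stretches of deeply read and of other introns alike thus lay away from the ends of the intron, and in mouse somas, BAT cells and cardiomyocytes they reached the 3′ end less often than those of the other introns.

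Tracts of at least 10 adenines on the gene strand were more frequent inside the deeply read stretches. A tract lay inside the single stretch of 17.5% of the deeply read introns in mouse dendrites (all introns 9.75%), 45.5% in mouse somas (all 10.8%), 23.9% in BAT cells (all 8.23%) and 38.4% in cardiomyocytes (all 14.2%). Since longer stretches hold more tracts, stretches of like length were set side by side. Among stretches of 400 nt or less, a tract lay inside 14.5% of the deeply read and 6.86% of the other introns in mouse dendrites, 37.1% and 5.55% in mouse somas, 16.9% and 4.12% in BAT cells, and 23.6% and 6.44% in cardiomyocytes. Among stretches of more than 800 nt the values were 11.2% and 25.0% in mouse dendrites, 56.6% and 34.7% in mouse somas, 28.0% and 22.3% in BAT cells, and 46.2% and 28.4% in cardiomyocytes. The excess was thus present in each length class in mouse somas, BAT cells and cardiomyocytes, and in mouse dendrites in all but the longest stretches, where it turned around (9 of 80 deeply read introns).

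Downstream of the stretch such tracts were less frequent than over all introns, by the least in mouse somas, where the direction turned in stretches of 400 nt or less (20% of the deeply read against 16.9% of the other introns). A tract of adenines lay within 300 nt after the stretch in 2.91% of the deeply read introns of mouse dendrites (9 of 309, all introns 8.01%), 15.7% in mouse somas (all 18.2%), 3.30% in BAT cells (all 7.16%) and 4.47% in cardiomyocytes (all 9.43%). In the introns shown above, the tract of Alkbh8 is followed by 147 nt of the same stretch, that of Gad1 by 301 nt and that of Kif1b by 103 nt. Tracts of thymines inside the stretch were found in 23.0%, 17.8%, 24.3% and 14.4% of the deeply read introns in the same order of lists, against 13.6%, 7.54%, 8.48% and 7.18% of the others. In stretches of 400 nt or less they were found in 11.8%, 8.57%, 9.88% and 4.0% of the deeply read introns against 9.86%, 5.56%, 4.95% and 4.78% of the others. In stretches of 400 to 800 nt they were found in 20.3% of the deeply read introns of mouse dendrites against 21.7% of the others. The shares were 19.8% against 13.9% in BAT cells and 10.9% against 12.3% in cardiomyocytes, and in mouse somas the deeply read introns were slightly below the others. In stretches over 800 nt thymine tracts were found in 38.8%, 30.3%, 30.8% and 20.9% against 36.7%, 18.6%, 26.6% and 20.7%. Only in BAT cells was the share of thymine tracts thus above that of the other introns in each length class. In cardiomyocytes it was close to that of the other introns in each class. In mouse dendrites over 800 nt it was the adenine tracts that were below. The reads carry no strand, and whether priming at the tracts shaped the counts was not tested.

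A minority of deeply read introns touched an annotated exon of the mouse annotation on the same strand, 6.14% in mouse dendrites (all introns 5.75%), 14.4% in mouse somas (all 10.2%), 12.2% in BAT cells (all 9.17%) and 15% in cardiomyocytes (all 11.9%). An annotated pseudogene was touched by 1.02% in mouse dendrites (6 of 586, all introns 0.442%), 1.98% in mouse somas (7 of 353, all 0.634%), 1.02% in BAT cells (28 of 2745, all 0.350%) and 1.09% in cardiomyocytes (25 of 2300, all 0.728%). Besides those of Pitpna and Cacnb2 (108413 reads in cardiomyocytes), such introns with many reads included, by a choice made after their values were seen, intron 2 of Rabgef1 in BAT cells (63465 reads), intron 8 of Fbxo24 in BAT cells and cardiomyocytes (37461 and 14810 reads) and intron 30 of Myo3a in the same cells (25841 and 52869 reads). Pseudogenes were thus touched by few deeply read introns, though by a larger share than over all introns in each mouse list. Deeply read introns were read over longer stretches, and the part of stretch length in these exon and pseudogene shares was not tested.

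Reads of processed RNAs can be placed in introns that hold a copy of the sequence, so single stretches were compared with the annotated protein-coding transcripts in words of 31 bases. At least 50% of the words were found in a coding transcript for 1.94% of the deeply read introns of mouse dendrites (6 of 309, all introns 3.60%), 2.62% in mouse somas (all 4.11%), 1.86% in BAT cells (27 of 1454, all 5.62%) and 1.94% in cardiomyocytes (30 of 1545, all 9.89%). Of the matching deeply read introns, 1 of 6, 1 of 5, 4 of 27 and 1 of 30 touched no annotated exon in the same order of lists. The others touched an annotated exon, where a match need not be a copy. Among stretches of 400 nt or less the deeply read introns had 1.32%, 2.86%, 5.81% and 3.11%, against 4.42%, 4.92%, 7.77% and 13.8% of all. Among stretches over 400 nt they had 2.15% (5 of 233), 2.56%, 1.33% and 1.74%, against 1.33%, 2.24%, 1.23% and 2.25% of all. Base composition was alike, with median GC contents of 41.6%, 41.0%, 40.0% and 39.8% in the deeply read and 41.5%, 42.2%, 42.5% and 42.0% in the other introns of the 4 mouse lists.

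A few genes held many deeply read introns. They were ranked after their values were seen. In cardiomyocytes Ryr2, the calcium release channel of the sarcoplasmic reticulum, had 22 deeply read introns among 47 listed ones, with 1164 to 29463 reads each and 141917 together. Fewer of its introns were listed elsewhere, with 18 in BAT cells (at most 1706 reads), 13 in mouse dendrites (at most 412) and 3 in mouse somas (at most 4). Ttn, the giant sarcomere protein titin, had 17 of 46 listed introns of 2 transcripts in cardiomyocytes, with up to 19856 reads. It had at most 1323 reads in an intron in BAT cells, 220 in dendrites and 3 in somas. Both genes were deeply read mainly in cardiomyocytes.

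Dmd was spread over more lists. It had 14 deeply read introns in cardiomyocytes (265080 reads together), 10 in BAT cells (32118 reads), 2 in mouse dendrites and 0 in mouse somas, although 23 of its introns were listed in somas, with at most 565 reads. Camk2d, the calmodulin-dependent kinase of heart muscle, had 8 in cardiomyocytes and 5 in BAT cells. Ctnna3 had 7 in cardiomyocytes, 1 in mouse somas and 2 in BAT cells, where its intron 2 was among the deepest of the list.

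**Figure D4:**
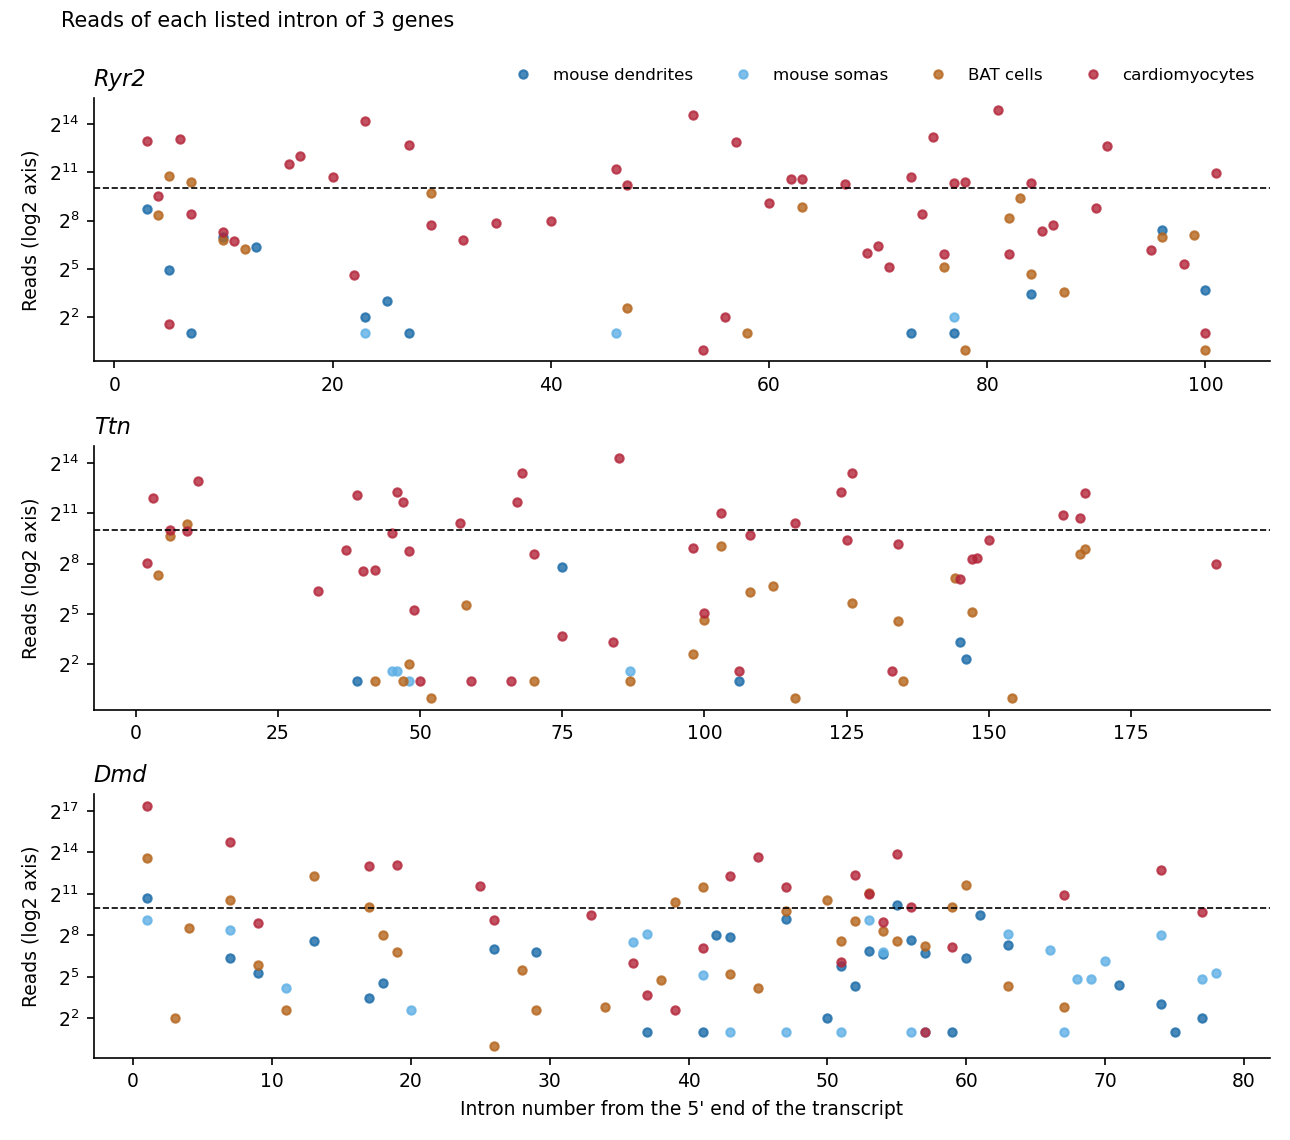
Reads of listed introns (vertical log2 axis) of Ryr2, Ttn and Dmd by intron number counted from the 5′ end of the transcript (horizontal axis), in the 4 mouse lists, with 1024 reads as a dashed line. The introns of Ttn belong to 2 transcripts that are numbered separately, and at a shared number the higher count is drawn. In cardiomyocytes the 22 introns of Ryr2 above the line are spread along the gene among introns with few reads. The 17 of Ttn above it also lie among introns with few reads, but their order along the gene cannot be read from the axis. Of the other lists BAT cells alone pass the line in these 2 genes.

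Genes with several deeply read introns were fewer in the neuronal lists, where cell type and list depth cannot be told apart. In mouse somas Reln had 7 of 27 listed introns, with 1266 to 4952 reads, Rims1 had 5 of 13 (29488 reads together) and Cadps, which primes dense-core vesicles, had 5 of 12. In dendrites Reln had 2, Rims1 0 and Cadps 0. In mouse dendrites Sfi1, a centrosomal protein, and Astn2, an adhesion protein of migrating neurons, had 4 each, and Sfi1 also had 7 in BAT cells, with up to 41805 reads in an intron. In rat somas Nell1, Odz4 and Ncam1 had 4 each. In rat dendrites no gene had more than 2.

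Host genes were sorted into 19 groups by symbol, and for each group the share of its listed introns that were deeply read was set beside the share over all introns of the list. The deepest intron of a group is named, and where a gene is named beside it, it was chosen after its values were seen. In mouse dendrites the groups stayed near the 3.01% of the list, with 9 of 19 above it and no interval that left it out. The highest share was that of the glutamate and GABA receptors, with 5 of 92 introns (5.43%, interval 2.34 to 12.1). Centrosome, kinetochore and cilium genes came next with 12 of 250 (4.80%), led by intron 8 of Haus6 (22090 reads). Adhesion and guidance genes had 16 of 386 (4.15%), led by intron 5 of the semaphorin Sema5a (4957 reads), and ion channels 10 of 245 (4.08%), led by intron 5 of the potassium channel Kcnd1 (3840 reads). Kinases and phosphatases had 6 of 358 (1.68%), led by intron 1 of Wnk1 (4731 reads), and cytoskeleton and motor genes 6 of 368 (1.63%), led by intron 18 of Myo18b (5112 reads).

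In mouse somas 5 groups had an interval above the 3.34% of the list, namely glutamate and GABA receptors, extracellular matrix, ion channels, adhesion and guidance, and the ubiquitin system. Glutamate and GABA receptors had 13 of 81 introns (16%, interval 9.63 to 25.5), led by Gria4 and by intron 4 of Grm5, a metabotropic receptor (6417 reads). Extracellular matrix genes had 16 of 170 (9.41%), of which 7 were introns of Reln, and without Reln the share was 6.29%. Ion channels had 10 of 139 (7.19%, and 6.02% without Cacna1b), led by intron 26 of Cacna1b (6539 reads), adhesion genes 17 of 242 (7.02%), led by intron 7 of the receptor phosphatase Ptprd (10792 reads), and ubiquitin genes 19 of 318 (5.97%, and 5.10% without Trim9), led by intron 6 of Klhl5 (5853 reads). Vesicle traffic had 14 of 313 (4.47%) and 3.00% without Rims1. Without the gene with the most deeply read introns the shares of ion channels and ubiquitin genes thus lay closer to that of the list, and no interval was computed for them. The introns of the receptor genes are long, with a median of 12179 nt against 3780 nt over all listed introns, and the part of length in the share was not tested.

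In BAT cells, against 9.14%, brown fat and lipid genes had 31 of 215 introns (14.4%, interval 10.3 to 19.7). They were led by intron 3 of Fabp4 (70980 reads) and intron 5 of Pparg, the master regulator of adipocytes (49886 reads). Sarcomere and dystrophin genes had 39 of 263 (14.8%), of which 10 were introns of Dmd, and the share was 12.5% without it. Receptors of glutamate and GABA had 14 of 87 (16.1%), although these are genes of neurons. Ubiquitin genes had 104 of 896 (11.6%), led by intron 75 of Usp34 (53384 reads). Mitochondrial genes had 55 of 499 (11%, interval 8.57 to 14.1, which includes the share of the list). They were led by intron 16 of Ndufs1 of respiratory complex I (61138 reads). Among chromatin genes, near the level of the list with 42 of 440 (9.55%), intron 10 of Ezh1 had 73884 reads.

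In cardiomyocytes, against 17.6%, ion channels had 53 of 151 introns (35.1%, interval 27.9 to 43.0), with 22 of them in Ryr2 and 29.8% without it. Sarcomere and dystrophin genes had 81 of 243 (33.3%, interval 27.7 to 39.5), led by Dmd and by intron 4 of Nebl (80964 reads), and 32.5% without Ttn, and their introns are shorter than those of the list, with a median of 1680 nt against 2736 nt. Kinases and phosphatases had 76 of 277 (27.4%), led by intron 2 of Erbb4, a neuregulin receptor (31474 reads), and matrix genes 41 of 171 (24.0%), led by intron 12 of Adamts19 (43113 reads). Ribosome and translation genes had 26 of 253 (10.3%, interval 7.11 to 14.6) and mitochondrial genes 28 of 300 (9.33%, interval 6.54 to 13.2), although Slc25a4 is among the latter. The introns of these last groups are short, with medians of 530 nt and 1213 nt.

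**Figure D5:**
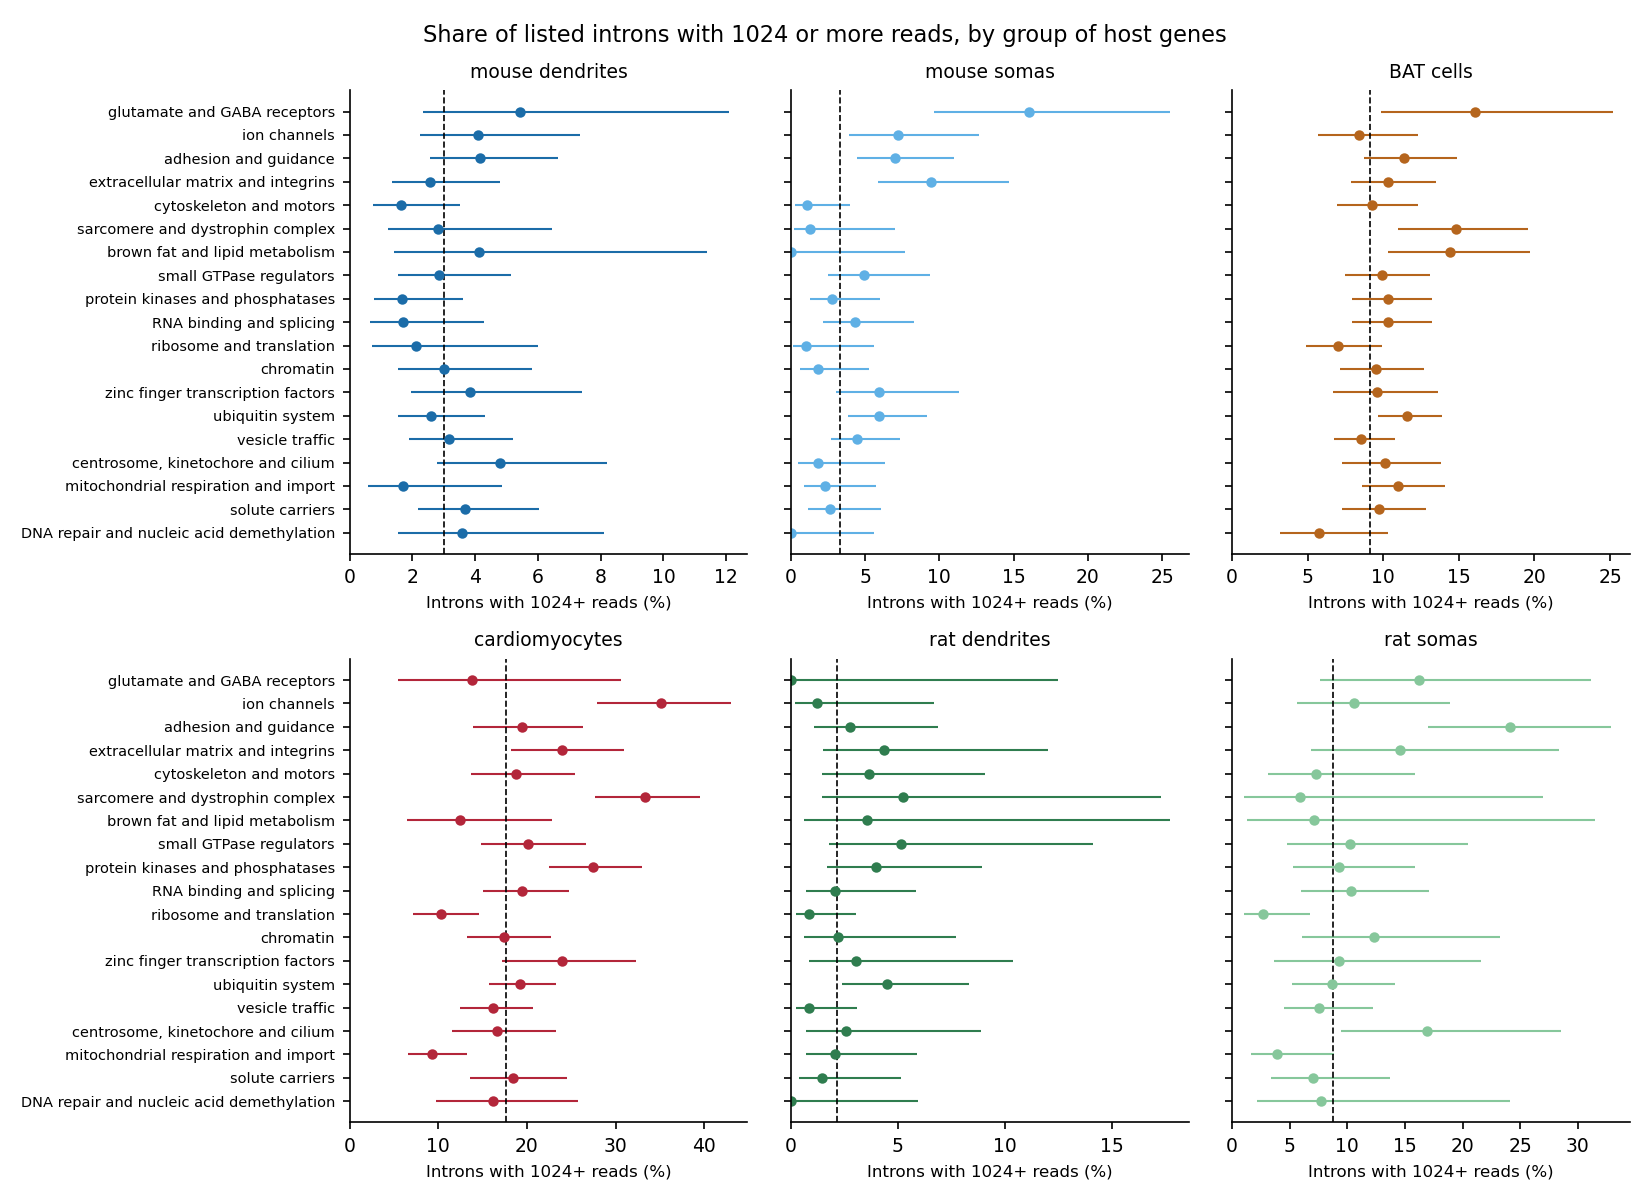
Share of listed introns with 1024 or more reads (horizontal axis, %) for 19 groups of host genes (rows) in the 6 lists (panels), with 95% Wilson intervals for counting error, and the share over all introns of the list as a dashed line. The sarcomere and dystrophin group is at 33.3% in cardiomyocytes against 17.6% for the list, and the glutamate and GABA receptors are at 16% in mouse somas against 3.34%.

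In rat somas, against 8.79%, adhesion and guidance genes had 26 of 108 introns (24.1%, interval 17 to 32.9), led by intron 20 of Dscam (10148 reads), and 20.8% without the gene that had the most. Centrosome, kinetochore and cilium genes had 10 of 59 (16.9%), led by intron 18 of the kinetochore gene Cenpi (19031 reads), and ribosome and translation genes had 4 of 147 (2.72%, interval 1.06 to 6.79). In rat dendrites, against 2.14%, ubiquitin genes had 9 of 200 (4.50%, interval 2.39 to 8.33), led by intron 3 of Ube2b (5601 reads), and the receptor group had 0 of 27 introns (interval 0 to 12.5). In rat somas the receptor group had 6 of 37 (16.2%), and its interval of 7.65 to 31.1 includes the share of that list. The groups were sorted by symbol pattern, so that the translation group includes the kinase Rps6ka3, and introns of 1 gene are not independent, which the intervals do not take into account.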

How the data were processed

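Intron lists were analysed for 6 groups, in each of which the authors had pooled libraries, so that there are no replicates, and no test between groups was made. Per the study's methods, the authors trimmed adapters and runs of A or T, aligned the reads to mm9 or rn4 with the RUM pipeline, counted intronic reads that paired-end Bowtie alignment placed uniquely, removed introns with predicted genes, poly(A) sites or small RNAs, and joined reads at most 500 nt apart into contigs (the stretches above). In whole cells the study further kept only contigs of at most 400 nt, a limit the deposited lists do not carry and which is an alternative here. The values are raw read counts as deposited by the authors, repeated on each contig of an intron, and were taken 1 time for each transcript and intron. Each column of counts was used. The depth of single libraries is not in the lists.

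Tables were made in Python 3.11.15 (pandas 2.3.3, numpy 2.4.6), genome sequence was taken by pysam 0.24.0 and matplotlib 3.10.9 was used for plots. Intron lengths and exons in mouse came from GENCODE on NCBIM37 (mm9). Lengths of rat introns are not analysed here. The 95% intervals are Wilson intervals for counting error only. Scripts were tested on simulated lists. The introns, gene groups and markers were chosen with earlier results of these data known. Genes named are the 5 deepest introns of each list, introns deeply read in 3 or more lists, the leading gene of each group and list, the 10 genes with the most reads in dendrites of both species, introns next to the minimum, and markers. Some of these genes are not reported here. Others named are stated as chosen after their values were seen. Alternatives were other read minimums, short contigs, a minimum scaled to list depth, shared coordinates, overlap rules, tract lengths and, chosen after seeing the data, reads scaled to list depth and groups without the gene that had the most deeply read introns.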

Additional observations from a re-analysis of the deposited data

How the results depend on the processing

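No paired analysis was possible because each list pools its libraries, and for the same reason no library could be left out. With a minimum of 512 reads the deeply read introns numbered 1335 in mouse dendrites, 730 in mouse somas, 4451 in BAT cells, 390 in rat dendrites and 818 in rat somas. With 2048 reads they numbered 212, 145, 1546, 67 and 212 in the same order, and 1428 in cardiomyocytes. The share of reads held was 62.7% and 28.6% at these minimums in mouse dendrites, 66.9% and 36.5% in mouse somas, 90.3% and 73.6% in BAT cells, 93.9% and 77.9% in cardiomyocytes, 62.6% and 33.9% in rat dendrites, and 84.9% and 55.1% in rat somas. Introns with a contig of at most 400 nt left 316, 159, 1234, 806, 66 and 139 (mouse dendrites, mouse somas, BAT cells, cardiomyocytes, rat dendrites, rat somas). A minimum scaled to list depth, set to keep the number in mouse dendrites, gave 617 in mouse somas, 634 in BAT cells, 731 in cardiomyocytes and 589 in rat dendrites. With at least 32 reads required in the other list, 53.8%, 73.1%, 53.7%, 60.2%, 33.3% and 27.2% were listed again. Where contigs had to overlap, whatever the transcript, 64.8%, 72.8%, 52.1% and 59.6% of the deeply read introns recurred in the mouse lists and 28.1% in rat somas. Overlap of at least 50% of the shorter contig gave 69.8% in BAT cells and 73.3% in cardiomyocytes. With 12 adenines, tracts downstream were at 9.42% in mouse somas, 2.34% in BAT cells and 3.17% in cardiomyocytes, and with 8 at 6.33% in BAT cells and 8.28% in cardiomyocytes. Counting shared coordinates 1 time moved neither the numbers nor the shares of reads beyond their error, and leaving out introns that touch an exon did not move the share listed again in the 4 mouse lists beyond its error. Of 114 combinations of group and list, 91 stayed on their side of the list's share at 512 reads, and 92 of 110 did so without the gene with the most deeply read introns, an alternative chosen after seeing the data. Scaled to list depth, which was also chosen after seeing the data, the introns of 3 or 4 mouse lists were highest in dendrites in 12 cases, somas in 23, BAT cells in 4 and cardiomyocytes in 17. The cause of these changes was not tested.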
